A study of Mus musculus with 8 samples.

Results

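Secretoglobins are small secreted proteins built of alpha helices that pair into dimers around a hydrophobic pocket and carry steroids and other greasy molecules. Most of the mouse genes belong to the androgen-binding protein family, in which an alpha subunit (Scgb1b genes) is joined to a beta or gamma subunit (Scgb2b genes), and which is best known from the secretions of the salivary and lacrimal glands. Scgb1a1 is the club cell secretory protein of the airway, Scgb3a1 and Scgb3a2 are secreted by airway epithelium, and steroid-binding secretoglobins are a classical secretion of the rodent ventral prostate. The genes described here are all rows of the expression table whose symbol starts with Scgb and a number, 34 of 36333 rows, chosen by name and not by level. They are 20 Scgb2b genes, 10 Scgb1b genes, Scgb1c1, Scgb3a1, Scgb3a2 and Scgb1a1.

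RNA was sequenced from ventral prostates of 4 hSKP2-KI and 4 WT male mice of the FVB/N strain, all 12 months old, with 1 library per mouse. WT mice carry no engineered allele. In hSKP2-KI mice a P2A-linked human SKP2 coding sequence was inserted into exon 1 of the endogenous probasin gene (Pbsn), an X-linked androgen-dependent gene of the prostate epithelium, so that SKP2, a substrate-recognition subunit of a ubiquitin ligase, is made where probasin would be. The sources used here do not say which of the knock-in lines was sequenced. Values are TPM, a level per transcript length scaled so that each library sums to 1000000.

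The knock-in was seen in the labelled libraries: Pbsn measured 115 ± 39.6 TPM (SD, n = 4) in hSKP2-KI and 5984 ± 2447 TPM in WT (n = 4), and the mouse Skp2 row 48.1 ± 10.1 and 1.75 ± 0.53 TPM. The luminal keratin Krt8 was between 434 and 559 TPM in all 8 libraries, and the seminal vesicle list (8 genes) did not exceed 0.486 TPM. Of the 13080 genes tested, those at 1 TPM or more in 4 or more of the 8 libraries, 33.9% were called at an adjusted p under 0.05 (limma with a mean-variance trend on log2(TPM + 1), Benjamini-Hochberg adjustment over all tested genes), 32.7% as higher and 1.23% as lower in hSKP2-KI. The median log2 fold change over these genes was 0.23, so a typical gene was listed higher in hSKP2-KI. After median-ratio scaling between libraries the median was -0.01, and 11.2% were called, 6.92% higher and 4.25% lower. In bulk tissue, fewer cells of a type and less RNA per cell cannot be told apart.

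Of the members, 30 lie side by side in a 2.84 Mb stretch of chromosome 7, from 31263736 to 34100837 on GRCm38 (RefSeq), 19 on the minus strand and 11 on the plus strand. The table holds 1 further gene inside it that is not a secretoglobin, and it was listed at 0. Many of these genes are recent copies of each other, which decides what the reads can tell. The annotated transcripts of Scgb2b15 (chromosome 7, 32827683 to 32829653) and Scgb2b17 (33054582 to 33056552), both on the minus strand, were identical over 491 of 491 bases, and their coding sequences are printed as 1 run because no base differs. Reads from these genes therefore cannot be assigned to either, and their levels are given separately and summed.
Scgb2b15 and Scgb2b17: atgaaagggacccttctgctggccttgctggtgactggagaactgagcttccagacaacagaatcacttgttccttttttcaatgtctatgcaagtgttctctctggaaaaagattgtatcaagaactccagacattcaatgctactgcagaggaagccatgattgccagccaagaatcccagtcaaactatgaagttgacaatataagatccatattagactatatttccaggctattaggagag
Scgb2b7 (31703779 to 31705754), the row with the highest mean TPM when Scgb2b15 and Scgb2b17 are kept apart, and Scgb2b20 (33364343 to 33366319) differed at 7 of 520 aligned transcript bases. Their first 240 of 336 coding bases, which hold the 6 coding differences (capitals), are shown because a fragment that covers none of the differences cannot separate the genes.
Scgb2b7: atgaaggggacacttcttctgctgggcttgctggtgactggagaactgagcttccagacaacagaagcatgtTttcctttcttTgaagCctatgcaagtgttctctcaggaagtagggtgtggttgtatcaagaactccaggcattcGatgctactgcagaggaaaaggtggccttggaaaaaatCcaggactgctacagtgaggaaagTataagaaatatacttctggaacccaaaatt
Scgb2b20: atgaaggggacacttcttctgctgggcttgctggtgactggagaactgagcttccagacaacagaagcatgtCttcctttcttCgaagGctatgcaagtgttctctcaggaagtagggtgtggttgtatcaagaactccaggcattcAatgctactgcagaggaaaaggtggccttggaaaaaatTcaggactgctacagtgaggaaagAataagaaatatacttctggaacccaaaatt
Likewise the alpha subunit genes Scgb1b7 (31712665 to 31713980) and Scgb1b20 (33373234 to 33374559) differed at 5 of 418 aligned bases, 3 of them coding.
Scgb2b10 was identical to Scgb2b15 and to Scgb2b17 over 240 aligned bases of its 318-base transcript, so part of its reads cannot be told from theirs either, and the sum of the pair may hold or miss some of them. Scgb1b29 was identical to Scgb1b7 over 282 of 282 bases, Scgb2b12 and Scgb2b19 shared 99.0% of their aligned bases, as did Scgb2b11 and Scgb2b18, and Scgb2b30 and Scgb2b33 shared 99.4%. How the authors assigned reads that match several copies is not given in the sources used here, so the level of any of these genes may include reads of its copy. Among the 6 Scgb2b genes that passed the filter, pairwise transcript identity ran from 74.3 to 100% with a median of 87.7% over 15 pairs. Coding sequences are those of GENCODE M21 on GRCm38.

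Secretoglobin RNA was present but scarce. There were 11 members listed at 0 in all 8 libraries (Scgb2b1, Scgb1b2, Scgb2b2, Scgb2b3, Scgb2b6, Scgb2b11, Scgb1b12, Scgb2b18, Scgb1b19, Scgb2b21 and Scgb2b26) and 23 above 0 in at least 1 library. Of these 23, 9 never reached 1 TPM, with a highest value of 0.972 TPM (Scgb1b3), 7 reached 1 TPM in too few libraries to be tested, and 7 passed the filter. The summed TPM of all 34 members was 26.4, 56.2, 107 and 87.0 in hSKP2-KI replicates 1 to 4 and 63.9, 60.6, 13.8 and 32.2 in WT replicates 1 to 4. That is 69.2 ± 35.4 against 42.6 ± 23.9 TPM (SD, n = 4 each), with groups that overlap, and no more than 0.0107% of the TPM of any library. By its mean over the 8 libraries, Scgb2b7 ranked 6035 of 36333 rows.

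**Figure D1:**
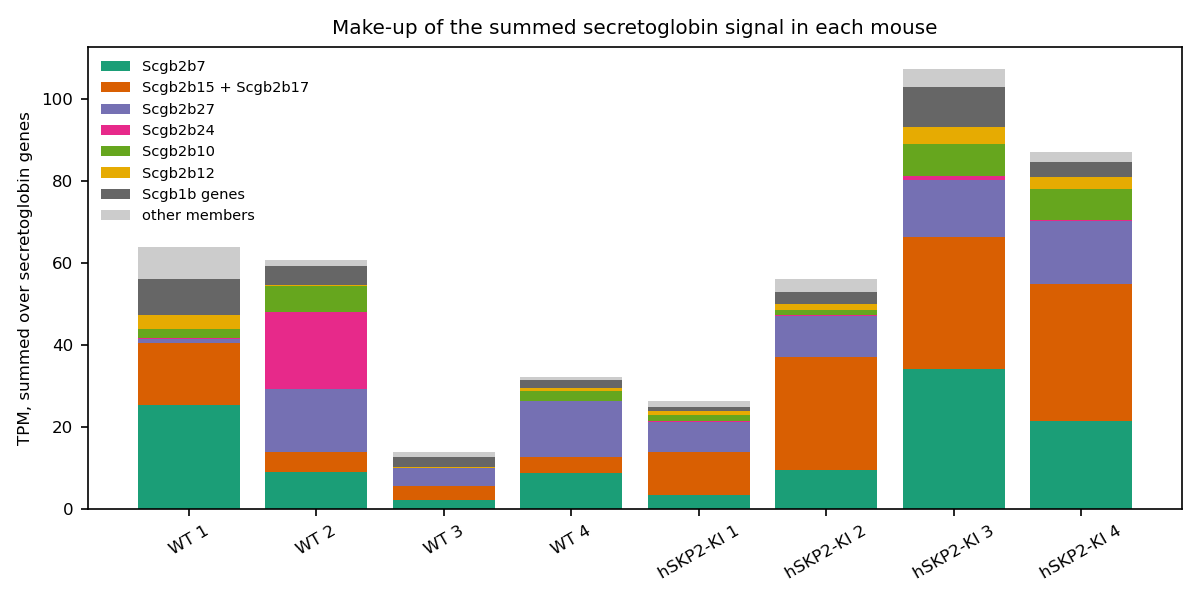
Stacked bars give the TPM summed over the 34 secretoglobin genes in each of the 8 mice, divided by gene. The sum runs from 13.8 TPM in WT replicate 3 to 107 TPM in hSKP2-KI replicate 3, and the Scgb2b15 and Scgb2b17 segment is 10.5 to 33.4 TPM in hSKP2-KI and 3.25 to 14.9 TPM in WT.

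The leading signal differed between mice. With Scgb2b15 and Scgb2b17 summed, since their reads cannot be assigned, they led in hSKP2-KI replicates 1, 2 and 4, Scgb2b7 in hSKP2-KI replicate 3 and WT replicate 1, Scgb2b27 in WT replicates 3 and 4, and Scgb2b24 in WT replicate 2. Over the 8 libraries the summed pair averaged 16.3 TPM, Scgb2b7 14.3 TPM and Scgb2b27 10.1 TPM. Beta and gamma subunit genes made up most of the signal, with a sum of 63.6 ± 32.0 TPM in hSKP2-KI and 37.9 ± 21.7 TPM in WT, while the 10 alpha subunit genes summed to 4.37 ± 3.81 and 4.45 ± 3.14 TPM (SD, n = 4 each).

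The reads behind these values could be recovered. In every detected member the nonzero TPM values were whole multiples of the value of 1 read, to within 0.01 of a read, and the TPM of 1 read differed between libraries by a factor of 0.88 (hSKP2-KI replicate 4) to 1.15 (hSKP2-KI replicate 2) relative to WT replicate 1. These numbers are the smallest that give the deposited values, so the true number can be a multiple of them, most of all in genes detected in few libraries. They are used to show depth, not in a count model, and intervals from them cover counting error only.

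Scgb2b15 and Scgb2b17, beta or gamma subunit genes, were the members that rose. Scgb2b15 measured 6.38, 13.6, 15.6 and 15.2 TPM in hSKP2-KI replicates 1 to 4 and 6.88, 3.07, 1.37 and 1.72 TPM in WT replicates 1 to 4. hSKP2-KI replicate 1 was just below WT replicate 1, and the other 3 hSKP2-KI mice were above every WT mouse. The group values were 12.7 ± 4.28 and 3.26 ± 2.52 TPM (SD, n = 4 each), and the log2 fold change was 1.78 (SE 0.36, 95% interval 0.98 to 2.58, limma adjusted p = 0.00629).

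Scgb2b17 measured 4.08, 14.1, 16.5 and 18.2 TPM in hSKP2-KI and 8.06, 1.81, 1.88 and 2.06 TPM in WT, in the same replicate order. The same mice stood out, with hSKP2-KI replicate 1 below WT replicate 1 and the other hSKP2-KI mice above all WT mice. Its group values were 13.2 ± 6.32 and 3.45 ± 3.07 TPM (SD, n = 4 each), and its log2 fold change was 1.71 (SE 0.46, 95% interval 0.71 to 2.72, limma adjusted p = 0.0180). With median-ratio scaling Scgb2b15 kept its call (log2 fold change 1.56, limma adjusted p = 0.0339) and Scgb2b17 did not (1.48, limma adjusted p = 0.0804).

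Because their transcripts are identical, the 2 genes are better read as 1 signal. Summed, they measured 10.5, 27.7, 32.1 and 33.4 TPM in hSKP2-KI and 14.9, 4.88, 3.25 and 3.77 TPM in WT. The means were 25.9 ± 10.6 and 6.71 ± 5.53 TPM (SD, n = 4 each), a ratio of 3.86. The log2 fold change was 1.90 (SE 0.43, 95% interval 0.95 to 2.86, limma adjusted p = 0.00951) and 1.66 after median-ratio scaling (limma adjusted p = 0.0491). Scgb2b15 took between 42.1 and 63.0% of the summed TPM in each library.

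The depth behind Scgb2b15 was small: 36, 70, 96 and 103 recovered reads in hSKP2-KI and 41, 17, 8 and 10 in WT. As examples of the counting error, the 8 reads of WT replicate 3 have a 95% exact Poisson interval of 3.45 to 15.8 reads, and the 103 of hSKP2-KI replicate 4 one of 84.1 to 125. The intervals of hSKP2-KI replicate 1 (25.2 to 49.8 reads) and WT replicate 1 (29.4 to 55.6 reads) overlap. The split of reads between Scgb2b15 and Scgb2b17 is not part of these intervals.

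The other tested members did not pass the test, and their groups overlapped. Scgb2b7, a beta or gamma subunit gene, measured 3.45, 9.42, 34.2 and 21.5 TPM in hSKP2-KI and 25.5, 8.97, 2.33 and 8.84 TPM in WT (log2 fold change 0.52, SE 0.67, limma adjusted p = 0.533). Its range within a genotype was about as wide as that over all mice, with 14 to 156 recovered reads in WT and 20 to 217 in hSKP2-KI. Scgb2b27 measured 7.32, 9.88, 13.9 and 15.3 TPM in hSKP2-KI and 1.02, 15.5, 4.46 and 13.6 TPM in WT (log2 fold change 0.76, SE 0.55, limma adjusted p = 0.279), so that WT held both its lowest and its highest value.

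Scgb2b10, listed as an unprocessed pseudogene by GENCODE and as protein coding by RefSeq, measured 1.31, 1.23, 7.70 and 7.49 TPM in hSKP2-KI and 2.31, 6.12, 0 and 2.36 TPM in WT. The WT values lay within or below the hSKP2-KI range (log2 fold change 0.57, SE 0.61, limma adjusted p = 0.454). Scgb2b12 measured 1.05, 1.33, 4.15 and 2.91 TPM in hSKP2-KI and 3.47, 0.356, 0.168 and 0.675 TPM in WT (log2 fold change 0.75, SE 0.41, limma adjusted p = 0.161). Here WT replicate 1 alone lay among the hSKP2-KI values, and without it the gene was called (1.18, limma adjusted p = 0.0275). The other WT mice were below 1 TPM, so without that mouse the gene reached 1 TPM in hSKP2-KI only. That call is therefore no support for a difference. Scgb1b20, the only alpha subunit gene to pass the filter, measured 0.847, 0.463, 5.42 and 1.06 TPM in hSKP2-KI and 4.61, 1.08, 0.408 and 0.615 TPM in WT, with 1 high mouse in each genotype (log2 fold change 0.11, SE 0.50, limma adjusted p = 0.871, and -0.04 after median-ratio scaling).

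In all, 2 of the 7 tested members (28.6%) were called, both higher, against 33.9% of all tested genes. After median-ratio scaling it was 1 of 7 (14.3%) against 11.2%. The 2 called were Scgb2b15 and Scgb2b17, so these shares and the median of the 7 count 1 signal as 2 genes. With the pair summed into 1 row, 1 secretoglobin row was called on deposited TPM. The median log2 fold change of the 7 was 0.75 and that of all tested genes 0.23. None of the 7 had groups that did not overlap, a pattern seen in 35.1% of all tested genes.

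**Figure D2:**
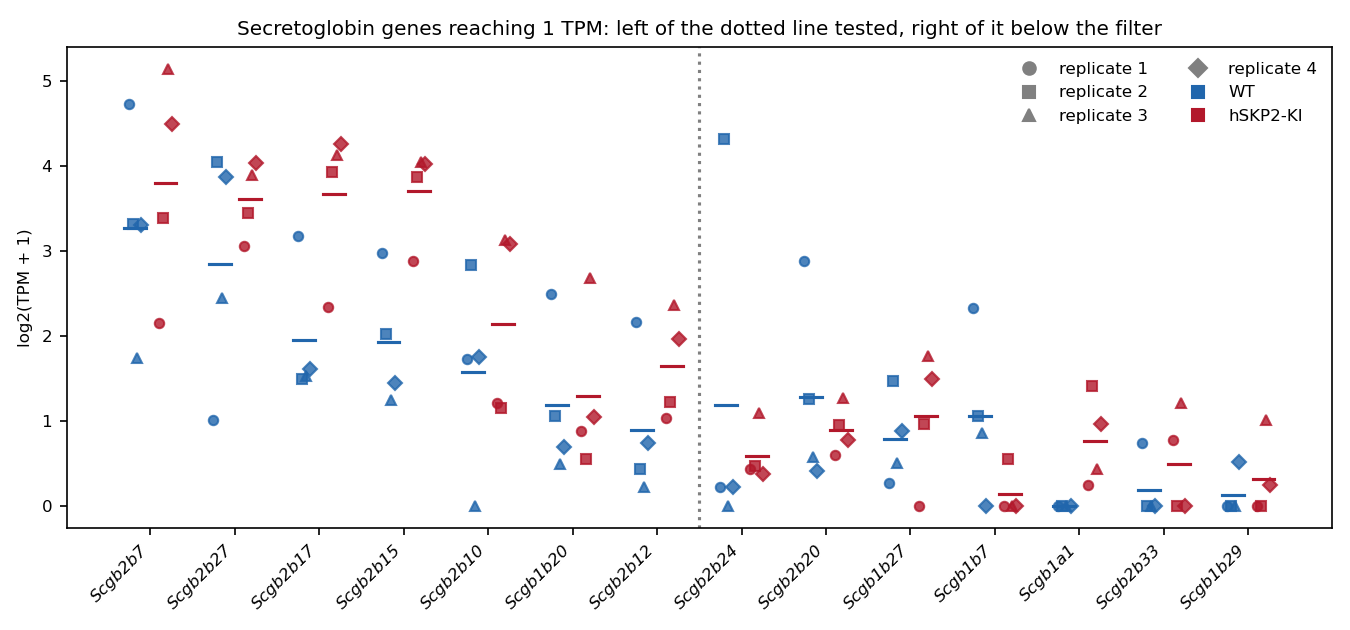
Points give log2(TPM + 1) of each mouse for the 14 secretoglobin genes that reached 1 TPM, with symbols by replicate number, blue for WT and red for hSKP2-KI, and short lines at the mean. Genes left of the dotted line were tested. For Scgb2b15 and Scgb2b17, 3 of 4 hSKP2-KI mice lie above all WT mice, and Scgb2b24 is high in WT replicate 2 alone.

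**Figure D3:**
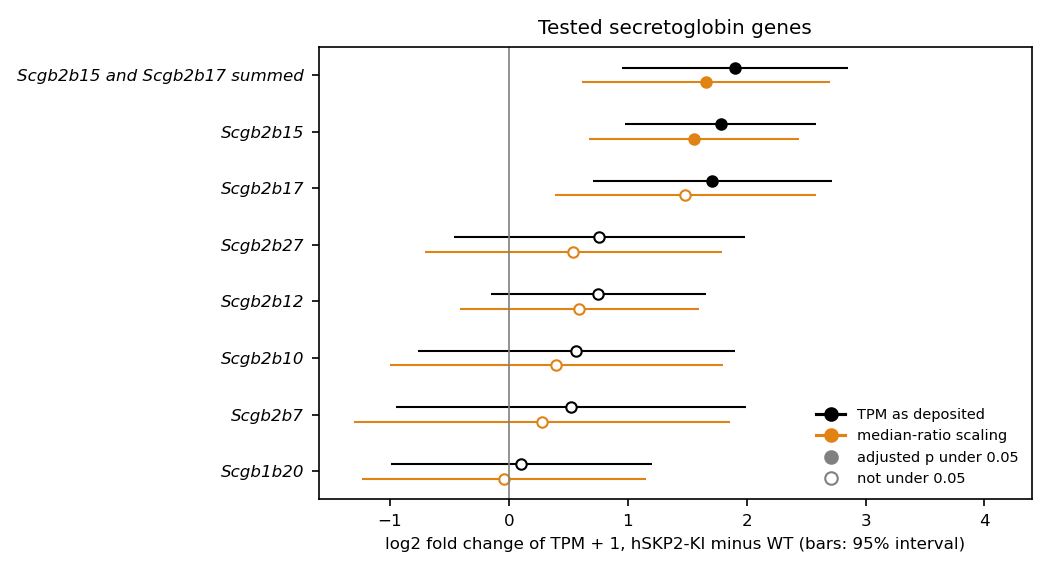
Points give the log2 fold change of TPM + 1, hSKP2-KI minus WT, with its 95% interval for the 7 tested genes and the summed pair, on deposited TPM (black) and after median-ratio scaling (orange), and filled points mark an adjusted p under 0.05. The intervals of Scgb2b15, Scgb2b17 and their sum lie above 0 on both scales, and Scgb2b17 is filled on the deposited scale alone.

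A further 7 members reached 1 TPM without passing the filter. Scgb2b20, Scgb2b24 and Scgb1b27, which reached it in both genotypes, were compared by two-sided exact permutation tests over the 70 assignments, whose smallest p is 0.0286. Scgb1a1, Scgb1b7, Scgb1b29 and Scgb2b33 reached it in 1 genotype only, and no test of them is given. Scgb1a1, the airway club cell protein, measured 0.191, 1.66, 0.348 and 0.952 TPM in hSKP2-KI and was listed at 0 in all 4 WT mice. It was the only member whose groups did not overlap. It reached 1 TPM in 1 library only, an hSKP2-KI library, so it was let in by the group where it was high, and no test of it is given. Among all tested genes, 34.0% were higher in every hSKP2-KI mouse than in any WT mouse, but those genes passed the filter that Scgb1a1 did not. The depth was 1, 8, 2 and 6 recovered reads, and 3 reads in a WT library would have been 0.541 to 0.583 TPM, which 2 of the hSKP2-KI values do not reach. In a fit with no filter on low values its log2 fold change was 0.77.

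Scgb2b24, a beta or gamma subunit gene, measured 18.8 TPM in WT replicate 2 and 0.168, 0 and 0.171 TPM in the other WT mice, against 0.355, 0.387, 1.13 and 0.295 TPM in hSKP2-KI (exact permutation p = 1). That mouse had 104 recovered reads (95% exact Poisson interval 85.0 to 126) where no other mouse had more than 7. It was the only gene of the table with at least 3 TPM in WT replicate 2 and at least 10 times the next highest library. The skeletal muscle gene Myh4 was also high in WT replicate 2 (12.6 TPM), and in hSKP2-KI replicate 4 (12.3 TPM), where Scgb2b24 stood at 0.295 TPM. Of the 9 salivary and lacrimal genes in the table, 3 were listed at 0 in all 8 libraries, and the summed level of the list was 356 to 403 TPM in hSKP2-KI and 348 to 553 TPM in WT. Bhlha15 alone was 343 to 549 TPM in WT. In WT replicate 2, Smr2 was 0.224 TPM, against 0 in the other WT mice, and Amy1 was 7.19 TPM, the highest of the WT mice. Both were higher in an hSKP2-KI mouse: Smr2 in replicate 2 (0.479 TPM) and Amy1 in replicate 4 (9.45 TPM). Scgb2b24 was 0.387 and 0.295 TPM in those mice. Dcpp1 was 0.062 TPM in WT replicate 2, below the 0.234 TPM of WT replicate 3. Their part in the Scgb2b24 level was not tested.

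Scgb2b20, the near copy of Scgb2b7, measured 0.514, 0.937, 1.41 and 0.714 TPM in hSKP2-KI and 6.33, 1.40, 0.496 and 0.332 TPM in WT (exact permutation p = 0.771). Scgb1b7, the alpha gene that stands head to head with Scgb2b7, was listed at 0, 0.463, 0 and 0 TPM in hSKP2-KI and 4.01, 1.08, 0.817 and 0 TPM in WT. WT replicate 1 held the highest value of both genes. Scgb1b27 measured 0, 0.953, 2.39 and 1.82 TPM in hSKP2-KI and 0.206, 1.78, 0.420 and 0.844 TPM in WT (exact permutation p = 0.543), with groups that overlap throughout.

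The remaining genes of this kind were barely detected. Scgb1b29 was identical to Scgb1b7 over the aligned bases of their annotated transcripts. It was listed at 0, 0, 1.01 and 0.184 TPM in hSKP2-KI and at 0.427 TPM in WT replicate 4 alone. Scgb2b33 was listed at 0.716, 0, 1.31 and 0 TPM in hSKP2-KI and at 0.678 TPM in WT replicate 1 alone. The 9 members that never reached 1 TPM were Scgb1b3, Scgb2b4-ps, Scgb2b30, Scgb2b19, Scgb1b24, Scgb1b30, Scgb1c1, Scgb3a1 and Scgb3a2.

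The levels of the subunit genes were compared pair by pair along the cluster. An Scgb2b gene and the Scgb1b gene of the same number stand next to each other on opposite strands: 12 such pairs could be placed, and in 11 of them the starts were 4488 to 13492 bases apart, while the genes numbered 30 were 1947399 bases apart. Of the 12 pairs, 9 had a higher mean level per length over the 8 libraries for the Scgb2b gene and 2 for the alpha gene, and in 1 (Scgb2b2 and Scgb1b2) both were listed at 0. Some of the 9 count for little. The lead of Scgb2b19 rests on 1 recovered read, and that of Scgb2b30 on 3 against 3 for Scgb1b30, which is not its neighbour. Scgb2b15 and Scgb2b17 share their reads and are not separate evidence. The pairs led by the alpha gene were Scgb2b20 and Scgb1b20, at 1.52 and 1.81 TPM, and Scgb2b3 and Scgb1b3, at 0 and 0.323 TPM. Scgb2b7 averaged 17.9 times Scgb1b7 and Scgb2b27 9.64 times Scgb1b27. Scgb2b24 averaged 13.5 times Scgb1b24, a ratio that falls to 1.86 without WT replicate 2. The alpha gene was listed at 0 in all 8 libraries in 6 of the 12 pairs (Scgb1b2, Scgb1b10, Scgb1b12, Scgb1b15, Scgb1b17 and Scgb1b19), those of Scgb2b15 and Scgb2b17 among them. Scgb1b10, Scgb1b15 and Scgb1b17 stand in the table under locus identifiers and were matched by gene identifier, so they are not among the 34. The near identity of the copies limits these comparisons for Scgb2b7 and Scgb1b7, for Scgb2b20 and Scgb1b20, and for Scgb2b10, Scgb2b15 and Scgb2b17.

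**Figure D4:**
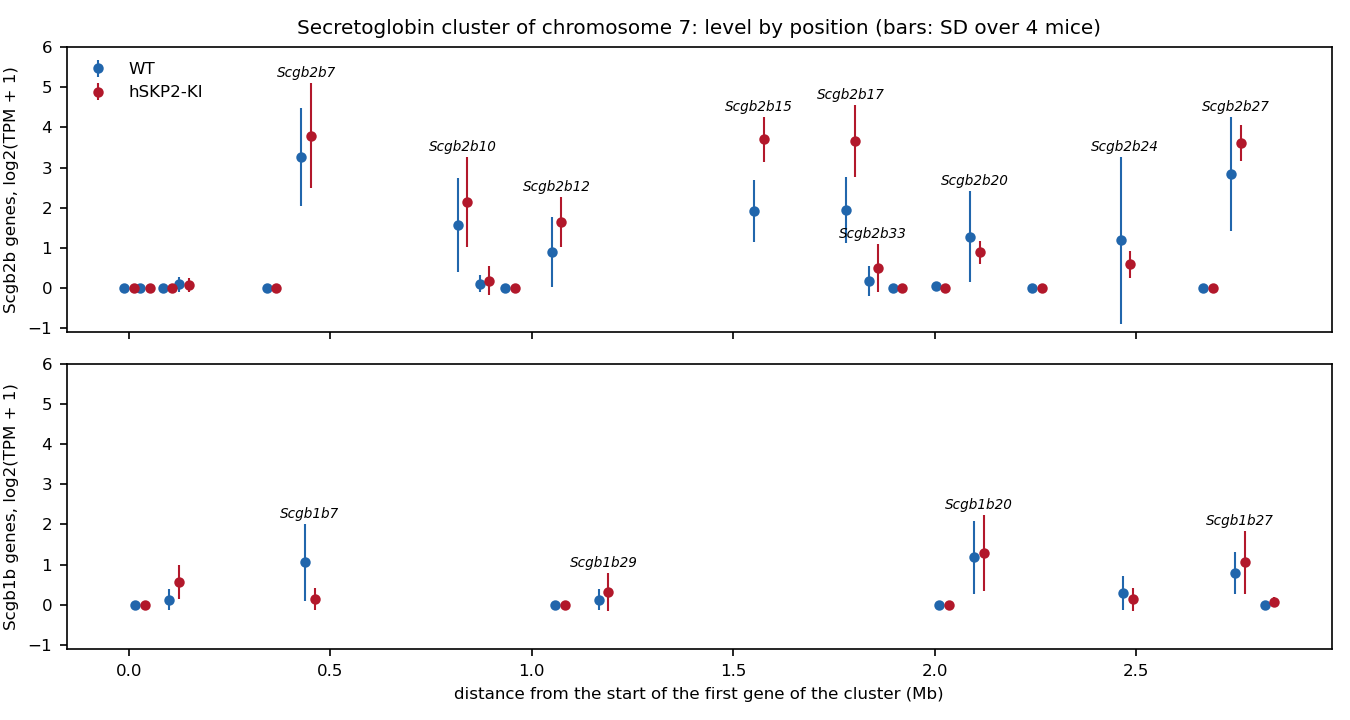
Mean log2(TPM + 1) of each gene of the chromosome 7 cluster against its distance in Mb from the start of the first gene, Scgb2b genes above and Scgb1b genes below, blue for WT and red for hSKP2-KI, with bars for the SD over 4 mice and names for genes that reached 1 TPM. Detected genes are spread along the cluster between genes listed at 0, and the Scgb1b genes lie lower than the Scgb2b genes.

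Members rose and fell together across mice to different degrees. Over the 8 libraries, log2(TPM + 1) of Scgb2b15 and Scgb2b17 correlated with Pearson r = 0.96 (Spearman rho = 0.90), and their reads cannot be told apart. Scgb2b7 and Scgb2b12 had r = 0.88 (rho = 0.90). Scgb2b27 stood apart, with r between -0.31 and 0.53 with the other 6 tested members. These are descriptions over 8 mice of 2 genotypes that share depth and genotype differences.

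The tested genes most like the 3 highest members were named by their Pearson correlation over the 8 libraries. They are the top of 13080 tested genes over 8 mice, a choice that gives high r by itself. No link between the genes is shown. For Scgb2b27 they were Snx13 (r = 0.987), Cog3 (0.970), Usp40 (0.970), Mdm2 (0.969) and Zbtb38 (0.968), none of them a secretoglobin. For Scgb2b17 they were Scgb2b15 (r = 0.961), 2610301B20Rik (0.947), Gm26881 (0.946), Prrg3 (0.945) and Oxtr (0.942). For Scgb2b7 they were LOC102639076 (r = 0.888), Pcca (0.888), Gm34969 (0.880), Scgb2b12 (0.878) and Rbks (0.873).

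The sequence upstream of the genes was compared after the listed levels of Scgb2b15 and Scgb2b17 were seen to move together. Their reads cannot be told apart, so that movement does not show how either gene behaved. Shared control of these genes was not tested. Over the RefSeq window of 250 bases before to 50 after the start, Scgb2b15, Scgb2b17 and Scgb2b10 were identical at 300 of 300 bases. Across the mice, log2(TPM + 1) of Scgb2b10 correlated with theirs at r = 0.52 and 0.45, values that the shared part of their transcripts also touches. The 250 bases before the start are shown once for all 3 (chr7:32829654-32829903 for Scgb2b15, minus strand, GRCm38.p6), with TATAAA and AGAACA, searched on both strands, in capitals.
Scgb2b15, Scgb2b17 and Scgb2b10 upstream: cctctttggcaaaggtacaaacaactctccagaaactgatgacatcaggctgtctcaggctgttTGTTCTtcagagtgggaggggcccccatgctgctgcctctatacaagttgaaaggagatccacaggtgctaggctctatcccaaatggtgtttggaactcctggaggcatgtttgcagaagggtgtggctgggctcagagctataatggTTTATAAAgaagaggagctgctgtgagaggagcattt
The TATA box core TATAAA was matched on both strands in overlapping positions, the nearer at -35, and AGAACA, a core of steroid hormone response sequences, on the reverse strand at -186. TATAAA was in 21 of the 27 member windows available and in 13.6% of 32817 windows of all genes, and AGAACA in 16 of 27 and 19.0%. Of the 6 tested members with a window, 6 held TATAAA and 5 held AGAACA, Scgb2b27 being without it. The TATAAA match of Scgb2b27 lay after the start, at 27, and so not upstream. Those of Scgb1b27 (at 43) and Scgb1b30 (at 39) lay after the start too. The full palindrome, AGAACA and TGTTCT 3 bases apart, was in none of the 27 (3 of all windows), and TGTTTAC, a FOXA sequence, in none of the 27 (3.65% of all windows). A match is a string of letters and not a bound site, and the members are copies of each other.

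Genes around the family were read from lists of regulators, receptors and carriers. Of 17 regulators known for secretoglobin genes in airway or prostate, 14 were tested and 8 were called higher and 0 lower on deposited TPM, against 32.7% higher of all tested genes, while after median-ratio scaling 2 were higher and 1 lower. Foxa1, a pioneer factor of the prostate epithelium, had a log2 fold change of -0.06 (limma adjusted p = 0.599), and of -0.33 with a call as lower after median-ratio scaling (adjusted p = 0.0342). Spdef, an epithelial factor of secretory cells, was at 33.1 TPM in both genotypes (log2 fold change -0.0024, limma adjusted p = 0.986). Klf5, an epithelial zinc finger factor, rose from 20.2 ± 4.69 to 41.0 ± 4.94 TPM (SD, n = 4 each), a log2 fold change of 1.00 (limma adjusted p = 0.00220) that held after median-ratio scaling (0.74, adjusted p = 0.0101). Nkx2-1, which drives secretoglobin genes in the lung, was listed at 0 in all 8 libraries.

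Of 10 receptors and partners, 9 were in the table, 5 were tested, and 3 were called higher and 0 lower, 2 of them higher after median-ratio scaling. Ptgdr, a receptor for prostaglandin D, went from 1.37 ± 0.485 to 12.2 ± 5.51 TPM (SD, n = 4 each, log2 fold change 2.41, limma adjusted p = 0.000567), and Fn1, the matrix protein fibronectin, had a log2 fold change of 1.34 (limma adjusted p = 0.00962). Lmbr1l, a lipocalin receptor, had one of 0.35 (limma adjusted p = 0.0977), and Sdc1, a cell surface proteoglycan, one of 0.15 (limma adjusted p = 0.335). Lrp2, the endocytic receptor megalin, did not exceed 0.0167 TPM. Of 12 small carriers of lipids, odorants or steroids, 3 were tested, 2 were called higher on deposited TPM and 0 after median-ratio scaling, and 6 were listed at 0 throughout.

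Markers of other cells moved between the genotypes beside these values. All 6 proximal luminal genes were called higher, 5 of them after median-ratio scaling, with a summed level of 494 to 917 TPM in hSKP2-KI and 190 to 244 TPM in WT. They were led by Krt4 (log2 fold change 2.38), Wfdc2 (2.01), Psca (1.86) and Ppp1r1b (1.31). The mean log2(TPM + 1) of the list was 7.03, 6.48, 6.20 and 7.10 in hSKP2-KI replicates 1 to 4 and 4.94, 5.09, 5.09 and 5.14 in WT replicates 1 to 4, with no overlap between the genotypes. Of 12 airway club and goblet genes, 7 were tested and 3 were called higher: Cyp2f2 (log2 fold change 1.14), Lypd2 (1.84) and Ltf (1.40), the last not after median-ratio scaling. The other tested genes of the list were called on neither scale: Cbr2 (0.20), Spdef (-0.0024), Aldh1a1 (-0.07) and Pigr (-0.18). After scaling their log2 fold changes were -0.07, -0.26, -0.34 and -0.45. The summed level of the 12 was 4462 to 5894 TPM in hSKP2-KI and 3940 to 5046 TPM in WT. Cbr2 alone averaged 3435 and 2978 TPM. The 5 genes of this list below the filter were low or absent: Reg3g was 0.115, 0.378, 0.105 and 0.192 TPM in hSKP2-KI and listed at 0 in all WT mice, Bpifa1 and Bpifb1 were above 0 in 2 hSKP2-KI mice each and in no WT mouse, at no more than 0.148 TPM, Muc5b did not exceed 0.0099 TPM, and Muc5ac was listed at 0. The part of these cells in the levels of Scgb1a1, Scgb2b15 and Scgb2b17 was not tested.

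Of the urothelial list, 3 of 3 tested genes were called higher (2 after median-ratio scaling), with log2 fold changes of 1.57 for Upk1b and 1.44 for Upk2. All 6 fibroblast genes (2 after scaling), among them Lum (1.81), all 5 smooth muscle genes (3 after scaling) and all 4 endothelial genes (1 after scaling) were called higher too, as were 4 of 8 leukocyte genes (0 after scaling), with Cd68 at 1.51 and C1qb at 1.00. Of 8 luminal genes, 4 were called higher and 0 after scaling, of 4 basal genes 2 and 0, and of 3 tested skeletal muscle genes 1 and 0. Of the secretory products of the lobes, Spink1 was lower on deposited TPM and not after scaling. Tgm4, a transglutaminase of other lobes, was called higher (log2 fold change 2.23, limma adjusted p = 0.0280), and not after scaling (adjusted p = 0.0939). It measured 77.5, 6.74, 4.99 and 5.76 TPM in hSKP2-KI replicates 1 to 4 and 1.06 to 2.16 TPM in WT. The high mouse, hSKP2-KI replicate 1, had the lowest summed secretoglobin TPM of its genotype. Msmb, listed with Tgm4, was called higher too (0.96, limma adjusted p = 0.00599), and not after scaling (adjusted p = 0.0539), while Pbsn, the knock-in locus, was called lower. In the epididymal list 1 of 1 tested gene was called higher on both scales, and in the salivary and lacrimal list 0 of 2. Their part in the secretoglobin levels was not tested.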

How the data were processed

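RNA of 8 ventral prostates was read as poly-A-selected paired-end libraries by the authors, who mapped the reads in CLC software; the submitters' processing notes name mm10 and GRCm38, and how reads matching several genes were counted is not given in the sources used here. The authors deposited a table of TPM, in which each library sums to 1000000, with 0 columns of unknown origin. The 5 mitochondrial genes looked up, which every cell uses, were listed at 0 in all 8 libraries, so a 0 does not show that a transcript was absent.

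Groups were taken from the genotype labels. Genes with at least 1 TPM in at least 4 of 8 libraries were tested on log2(TPM + 1), a pseudocount of 1, with limma 3.58.1 in R 4.3.3 and a mean-variance trend, with Benjamini-Hochberg adjustment over all 13080 genes and a threshold of 0.05. A fold change on this scale understates the change of low genes. The fit was tested on simulated data. Members below the filter that reached 1 TPM in both genotypes were compared by exact permutation (scipy 1.17.1). The members and lists were chosen with earlier results of these data known. Every member was accounted for, with values in each mouse for those reaching 1 TPM. From the lists, Foxa1, Nkx2-1, Spdef, Lrp2, Lmbr1l, Sdc1 and genes called with an absolute log2 fold change over 1 were named, except for items not reported here. Other genes named with values were chosen after their values were seen. Nothing states that the libraries come from separate litters or batches, so p-values measure the spread between these mice. Sequences were aligned with Biopython 1.88; figures were drawn with matplotlib 3.10.9. Alternatives were other pseudocounts, filters and scalings, a replicate block, a robust fit and leaving out each mouse; summing Scgb2b15 and Scgb2b17, and the search for genes high in 1 library, were chosen after seeing the data.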

Additional observations from a re-analysis of the deposited data

Results flagged for a closer look

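In 28 groups of 4 mice with a value above 0, the gap of the highest or lowest mouse to its nearest neighbour, divided by the range, was compared with Dixon's critical value for 4 samples. For normally spread values chance flags about 1 in 20 groups, here 1.4, and 9 groups were flagged. The TPM were not shown to be normally spread, so 9 against 1.4 does not show an excess. A gene with reads in only 1 mouse of a group is always flagged by this measure.

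Scgb2b12 was 3.47 TPM in WT replicate 1 against 0.168 to 0.675 TPM in the other WT mice, and Scgb2b17 was 8.06 TPM there against 1.81 to 2.06 TPM. Scgb1b20 was 4.61 TPM in WT replicate 1, and 5.42 TPM in hSKP2-KI replicate 3. Scgb2b24 was 18.8 TPM in WT replicate 2, and 1.13 TPM in hSKP2-KI replicate 3.

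The others rest on few reads. Scgb1b7 was listed at 0.463 TPM in hSKP2-KI replicate 2 alone, Scgb1b29 at 0.427 TPM in WT replicate 4 alone, and Scgb2b33 at 0.678 TPM in WT replicate 1 alone of their groups.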

How the results depend on the processing

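Scgb2b15 kept its direction and its call under every alternative run. The number of secretoglobin genes called was 2 and fell to 1 with no filter on low values, median-ratio scaling, quantile normalization, rescaling that leaves out the 20 most abundant genes, a robust fit, and Scgb2b15 and Scgb2b17 summed into 1 row. The gene lost in the first 5 was Scgb2b17, with log2 fold changes and limma adjusted p of 1.71 and 0.0567, 1.48 and 0.0804, 1.43 and 0.101, 1.64 and 0.0738, and 1.71 and 0.0560. The summed pair lost its call under quantile normalization alone (1.64, limma adjusted p = 0.0560). Genes called among all tested fell from 4433 to 1461 with median-ratio scaling, 1317 with quantile normalization and 1330 without the 20 most abundant genes. Scgb1b20, never called, was reversed at -0.044, -0.17 and -0.021 under these 3 scalings and at -0.36, -0.12 and -0.057 without hSKP2-KI replicate 3, WT replicate 3 and WT replicate 4 (range without 1 mouse -0.36 to 0.54). Leaving out each mouse gave 2993 to 4677 genes called and 2 to 3 secretoglobin genes. Over these fits log2 fold changes were 1.55 to 2.13 for Scgb2b15, 1.51 to 2.15 for Scgb2b17 and 1.69 to 2.33 for their sum. The difference in summed secretoglobin TPM was 13.9 to 40.9 against 26.6. The third gene called was Scgb2b12 without WT replicate 1. It then reached 1 TPM in hSKP2-KI only, so that call is no support for a difference. With the replicate number as a block, 5128 genes and the same 2 secretoglobin genes were called (limma adjusted p = 0.0190 for Scgb2b15 and 0.0446 for Scgb2b17). Deviations of same-numbered mice correlated across genes at 0.221, -0.109, 0.167 and -0.0142. The labels give no sign that the numbers pair the mice, and these values can neither show nor exclude it. The cause of these changes was not tested. Depth limits members with fewer than 10 reads in most libraries, for which a value of 0 may be a missed transcript.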

Other observations

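Scgb2a2, whose human counterpart is mammaglobin, stands in the table under a locus identifier and was matched by gene identifier. It measured 1.13, 0.619, 0 and 0 TPM in hSKP2-KI replicates 1 to 4 and 0.358, 0, 0.546 and 0.365 TPM in WT replicates 1 to 4, so its groups overlap. GENCODE M21 lists Scgb2b1, Scgb2b4-ps, Scgb2b6, Scgb2b10, Scgb2b30 and Scgb2b33 as unprocessed pseudogenes where RefSeq lists them as protein coding, and of these 6 only Scgb2b10 passed the filter.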
